A study of Mus musculus with 24 samples.

Results

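Fatty acid elongases are the membrane enzymes of the endoplasmic reticulum that start each round of fatty acid lengthening. Of the 18820 gene symbols measured on liver arrays of male mice, 6 belong to this family and are described here: Elovl1, Elovl2, Elovl3, Elovl5, Elovl6 and Elovl7. They were chosen by symbol, with the brightest probe set taken per symbol, and each of the 6 has a single probe set. The family was picked because Elovl3 and Elovl7 were known to go opposite ways after bile duct ligation, so the values of all members in ligated against sham livers are given as a description, without a test.

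The study measured RNA of 24 mouse livers on whole-transcript microarrays, in 8 groups of 3 arrays. Control mice (JNK1f/f, with floxed alleles and no Cre named in the labels) had a sham operation or bile duct ligation (BDL), which blocks bile flow out of the liver. JNK1-/- mice lack the kinase throughout the body, and JNK1Δhepa mice carry the floxed alleles with a Cre recombinase under the albumin promoter, which removes it in hepatocytes. Both mutants were only ligated; no mutant sham group was analysed. Livers were taken 48 h or 28 d after surgery, and the labels give the mice as C57/BL6 males of 8 weeks at 48 h and 12 weeks at 28 d, so time and age cannot be told apart. Per the labels' protocols the JNK1-/- mice came from another source than the floxed line, and whether 1 array is 1 mouse is not stated, so p-values measure the spread between these arrays only. Values are log2 intensities: a difference of 1 is a 2-fold change, and levels are compared between arrays for 1 gene, never between genes.

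Each elongase joins an activated fatty acid to malonyl-CoA, and a reductase, a dehydratase and a further reductase complete the round. Elovl1 lengthens saturated chains that enter sphingolipids, Elovl3 and Elovl7 lengthen saturated and monounsaturated chains, Elovl6 turns palmitate into stearate at the end of lipogenesis, and Elovl5 and Elovl2 act in turn on polyunsaturated chains. In mouse liver Elovl3 is known as a gene higher in males and tied to the daily rhythm, and Elovl5 and Elovl6 as targets of the sterol regulatory element binding proteins.

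The labels were first set against the targeted gene. Mapk8, which encodes JNK1, read 5.18 to 6.17 on the 6 JNK1-/- arrays, below every other array. The JNK1Δhepa arrays at 48 h read 6.76 to 6.81, against 7.37 to 7.49 in ligated controls, but the control sham arrays at 48 h read 6.67 to 6.93, at the level of the hepatocyte knockout and below the 7.52 to 7.54 of the sham arrays at 28 d. At 28 d the array labelled JNK1Δhepa replicate 1 read 7.67, the level of controls, where the lowest of its group read 6.90. Differences of the members between ligated and sham controls are given also with the sham arrays of the other time, as are some list results. Main results of JNK1Δhepa livers at 28 d are given also without that replicate. List means of hepatocyte markers ran from 12.70 to 12.90 over all arrays. They were lowest in ligated controls at 28 d, at 12.74 on average, where 1 of 6 markers fell against shams. No adipocyte marker passed the test in any comparison.

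The promoters of the 3 elongases on which the later results turn are shown first: Elovl5 and Elovl6, whose group means followed each other, and Elovl7, the member higher after ligation. The windows run from 250 bases before to 50 after the start of the gene, from RefSeq on GRCm38.p6, all on the plus strand: chr9:77917115-77917414 for Elovl5, chr3:129532136-129532435 for Elovl6 and chr13:108214154-108214453 for Elovl7. Capitals mark matches, on either strand, to 8 motifs: the cyclic AMP response element TGACGTCA, the AP-1 element TGANTCA, the E-box CACGTG, the CCAAT box, the sterol regulatory element TCACNCCAC, the STAT element TTCNNNGAA, the TATA box TATAAA and the GC box GGGCGG.
Elovl5: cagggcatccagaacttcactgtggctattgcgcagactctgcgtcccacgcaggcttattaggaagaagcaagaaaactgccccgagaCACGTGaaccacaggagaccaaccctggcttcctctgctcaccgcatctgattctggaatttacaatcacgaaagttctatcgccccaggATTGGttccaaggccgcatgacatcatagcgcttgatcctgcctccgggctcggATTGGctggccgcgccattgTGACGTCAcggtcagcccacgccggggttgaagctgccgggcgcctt
Elovl6: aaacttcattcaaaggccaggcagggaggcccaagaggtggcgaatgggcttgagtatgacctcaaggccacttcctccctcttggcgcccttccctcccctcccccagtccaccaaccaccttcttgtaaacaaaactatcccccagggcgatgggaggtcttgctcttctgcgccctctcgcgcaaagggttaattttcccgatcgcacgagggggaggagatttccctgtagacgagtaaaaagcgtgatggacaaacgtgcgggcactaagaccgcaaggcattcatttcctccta
Elovl7: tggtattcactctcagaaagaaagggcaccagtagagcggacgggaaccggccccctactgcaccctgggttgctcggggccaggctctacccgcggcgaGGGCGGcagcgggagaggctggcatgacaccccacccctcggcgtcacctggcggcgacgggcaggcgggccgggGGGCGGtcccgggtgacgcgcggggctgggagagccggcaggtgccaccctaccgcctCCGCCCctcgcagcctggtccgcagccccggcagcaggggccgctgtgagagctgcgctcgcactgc
The Elovl5 window held an E-box at -161 from the start, found in 7.15% of 32851 such windows, reversed CCAAT boxes at -71 and -17 (37.4%), and a cyclic AMP response element at +4 (1.79%). In the Elovl6 window none of the 8 letter strings was found, including the sterol element, which 1.24% of windows held. Elovl7 had 3 GC boxes (35.7% of windows) in a window of 74.0% G and C, against a median of 52.7%. A match is a description of letters and not a binding site. Of the 6 members 5 had a window; Elovl3 had none.

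Elovl3 was at its highest in sham livers and lower on every ligated array. The sham arrays read 12.51, 12.46 and 12.44 at 48 h and 12.19, 11.95 and 12.41 at 28 d. Ligated controls read 9.88, 8.30 and 10.12 at 48 h and 5.09, 5.37 and 4.20 at 28 d, so the later arrays were all below the earlier ones and neither range reached the sham range; over all symbols the ranges of ligated and sham controls were apart for 32.9% at 48 h and 33.1% at 28 d. JNK1-/- livers read 7.03, 7.46 and 6.99 at 48 h, below all 3 ligated controls, and 6.00, 5.0 and 5.70 at 28 d. JNK1Δhepa livers read 6.87, 7.26 and 10.64 at 48 h, where replicate 3 stood above every ligated control and the others below, and 4.89, 5.67 and 5.94 at 28 d. At 28 d the 3 ligated genotypes overlapped.

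Against the sham group of its time, Elovl3 was lower in ligated controls by 3.04 (SE 0.66; 8.22-fold) at 48 h and by 7.30 (157-fold) at 28 d. The JNK1-/- livers were 39.8-fold lower at 48 h and 98.1-fold at 28 d, and in JNK1Δhepa livers 18.6-fold and 103-fold, each against control shams. With the sham arrays of the other time the differences of the controls were -2.75 and -7.58. The order of group means ran from both sham groups through ligated controls at 48 h (9.43 ± 0.99, SD, n = 3), JNK1Δhepa at 48 h (8.25 ± 2.1) and JNK1-/- at 48 h (7.16 ± 0.26) to the 3 groups at 28 d (5.57 ± 0.52 in JNK1-/-, 5.50 ± 0.54 in JNK1Δhepa and 4.89 ± 0.61 in controls). In bulk tissue, fewer cells of a type and less RNA per cell cannot be told apart.

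Elovl7 took the opposite course. The sham arrays read 3.56, 3.91 and 3.70 at 48 h and 3.75, 3.42 and 3.95 at 28 d, while ligated controls read 7.18, 7.37 and 7.47 at 48 h and 7.55, 7.27 and 7.80 at 28 d. The 2 ranges of controls lay more than 3 log2 units above the shams and overlapped each other. JNK1-/- livers read 4.37, 6.81 and 6.66 at 48 h, where replicate 1 was near the sham level, and 6.96, 7.08 and 7.10 at 28 d. JNK1Δhepa livers read 6.94, 7.01 and 6.77 at 48 h and 8.08, 7.72 and 6.85 at 28 d.

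In ligated controls Elovl7 was higher than in shams by 3.62 (SE 0.41; 12.3-fold) at 48 h and by 3.83 (14.3-fold) at 28 d, or 3.63 and 3.82 with the sham arrays of the other time. It was in JNK1-/- livers 4.67-fold and 10.1-fold higher than in control shams, and in JNK1Δhepa livers 9.09-fold and 14.4-fold. The sham levels of Elovl7 were dim, at the 20.6th and 20.8th percentile of all symbols on the arrays of 48 h and 28 d, and no detection call was used here, so these folds rest on a level near the low end of the arrays. Elovl3 thus differed most at the later time, whereas Elovl7 in controls stood as high at 48 h as at 28 d. Over all symbols 9.43% passed the test in ligated against sham controls at 48 h and 23.2% at 28 d; 3.83% and 11.5% were lower. These shares are background only, since the family was picked on this contrast.

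Some markers of other cells were also higher after ligation, the neutrophil markers at both times. The cholangiocyte list (bile duct cells) averaged 4.85 to 5.99 in shams and 5.26 to 6.61 in ligated livers, except 8.07 on the control BDL array at 28 d replicate 3, and 2 of its 6 markers rose at 48 h and 1 at 28 d. All 4 neutrophil markers rose at both times, from list means of 4.33 to 5.32 in shams to 5.39 to 7.92 after ligation. Of 8 macrophage markers 1 rose at 48 h and 5 at 28 d. Over all symbols 9.43% passed at 48 h and 23.2% at 28 d. The cholangiocyte share at 28 d and the macrophage share at 48 h lay near these. At 28 d 2 of 3 mesothelial and 1 of 7 stellate cell markers rose. Endothelial and lymphocyte markers fell in 1 of 5 each. Within groups, Pearson's r with Elovl7 was 0.29 for cholangiocyte, -0.08 for neutrophil, -0.60 for macrophage and -0.61 for endothelial list means. The part of these cells in the Elovl7 values was not tested. On the array with cholangiocyte markers at 8.07, Elovl7 read 7.80, against 7.27 and 7.55 in the other replicates. The JNK1-/- array with Elovl7 at 4.37 had cholangiocyte markers at 5.60, next to 5.70 and 6.20 in its group, and the highest neutrophil mean of the 3, 7.57.

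**Figure D1:**
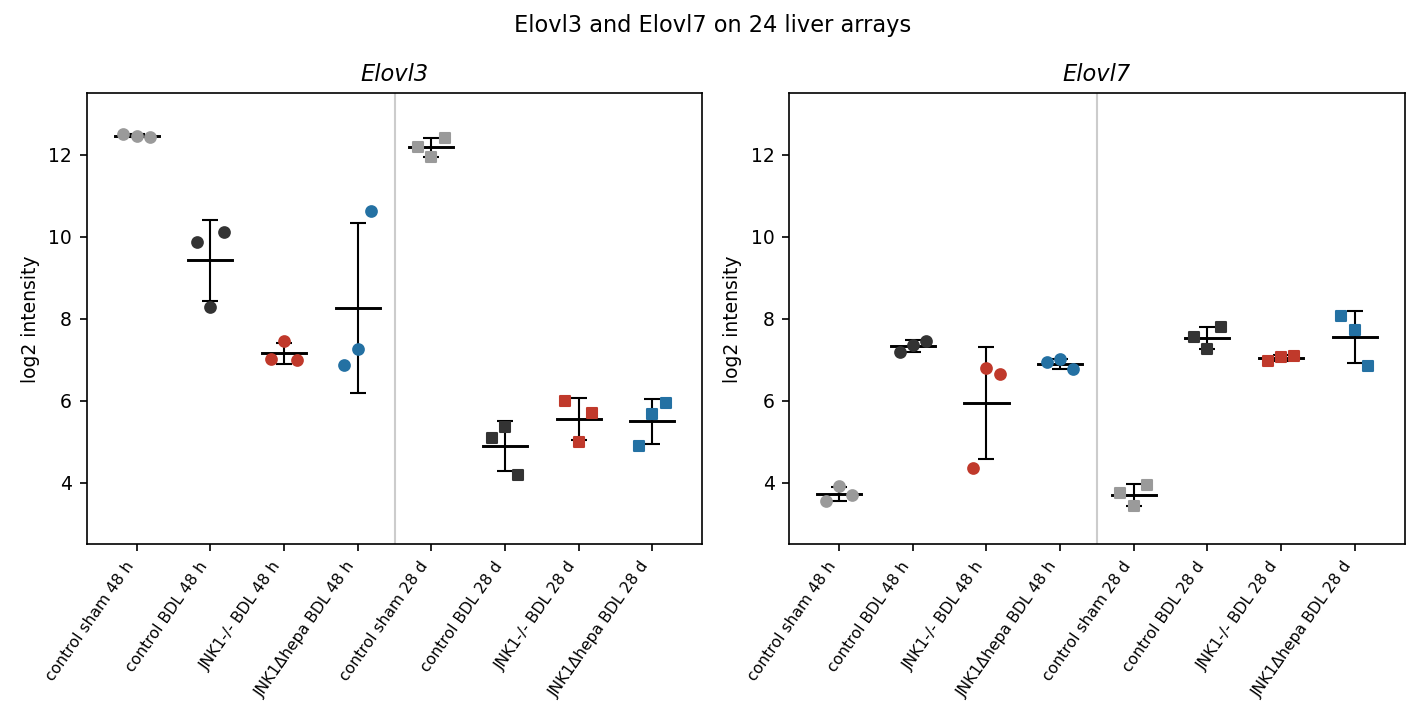
Log2 intensity of Elovl3 (left) and Elovl7 (right) on each of 24 arrays, by group on the horizontal axis; points are arrays, the bar is the group mean and whiskers are 1 SD (n = 3). Elovl3 goes from above 11.9 in shams to below 6.1 at 28 d after ligation, and Elovl7 from below 4.0 to between 6.8 and 8.1, with 1 JNK1-/- array at 48 h at 4.37.

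Elovl6, the palmitate elongase, was little different from shams at 48 h in ligated controls and JNK1Δhepa livers. It was lower in JNK1-/- livers at that time, and far lower on single arrays of 3 ligated groups. Shams read 10.89, 10.53 and 10.87 at 48 h and 10.70, 10.39 and 10.63 at 28 d, and ligated controls 10.86, 10.72 and 10.52 at 48 h, within the sham range. Ligated controls at 28 d read 7.77, 10.23 and 10.33, so all 3 were below the shams but replicate 1 was far below the rest. The mean difference at 28 d was -1.13 (SE 0.55, 2.19-fold) and -0.29 without that replicate. With the sham arrays of the other time the differences at 48 h and 28 d were 0.13 and -1.32. JNK1-/- livers read 7.96, 10.08 and 10.06 at 48 h, below every other array of that time, and 10.52, 10.24 and 10.65 at 28 d. JNK1Δhepa livers read 10.69, 10.68 and 10.83 at 48 h and 8.48, 9.76 and 9.86 at 28 d, which is below every JNK1-/- array of that time.

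Elovl5, which lengthens polyunsaturated chains, differed by 0.01 in ligated controls at 48 h, within the spread. Shams read 12.35, 12.25 and 11.90 at 48 h and 12.40, 11.56 and 12.28 at 28 d; ligated controls read 12.26, 12.32 and 11.96, then 11.29, 11.37 and 11.62. At 28 d the ligated controls were 0.65 lower (1.57-fold) and overlapped sham replicate 2. With the sham arrays of the other time the differences at 48 h and 28 d were 0.10 and -0.74. Every ligated control array at 28 d was below the shams of 48 h. JNK1-/- livers read 11.22, 11.87 and 11.56 at 48 h, below every ligated array of the other genotypes at that time, and 12.16, 11.55 and 12.15 at 28 d. JNK1Δhepa livers ran the other way, with 12.35, 12.32 and 12.74 at 48 h and 11.09, 11.48 and 11.68 at 28 d.

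Elovl2, the next enzyme on the polyunsaturated route, read 11.76 to 11.96 in shams at 48 h and 11.85 to 12.10 at 28 d. Ligated controls read 11.62 to 11.81 at 48 h and 11.04 to 11.43 at 28 d, 0.76 (1.69-fold) below shams at 28 d with no overlap. With the sham arrays of the other time the differences at 48 h and 28 d were -0.21 and -0.65. JNK1-/- livers read 11.28 to 11.82 and then 11.37 to 11.60, and JNK1Δhepa livers 11.73 to 12.07 and then 11.19 to 11.36. Elovl1 had the narrowest range of group means, 0.61. It read 9.90 to 10.19 in shams at 48 h and 9.76 to 9.96 at 28 d, 10.08 to 10.38 and 9.22 to 9.89 in ligated controls, 9.71 to 10.08 and 9.83 to 9.85 in JNK1-/- livers, and 10.15 to 10.29 and 9.38 to 9.91 in JNK1Δhepa livers. Its difference in ligated controls was 0.21 at 48 h and -0.24 at 28 d, or -0.04 without replicate 1. With the sham arrays of the other time it was 0.37 and -0.40.

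**Figure D2:**
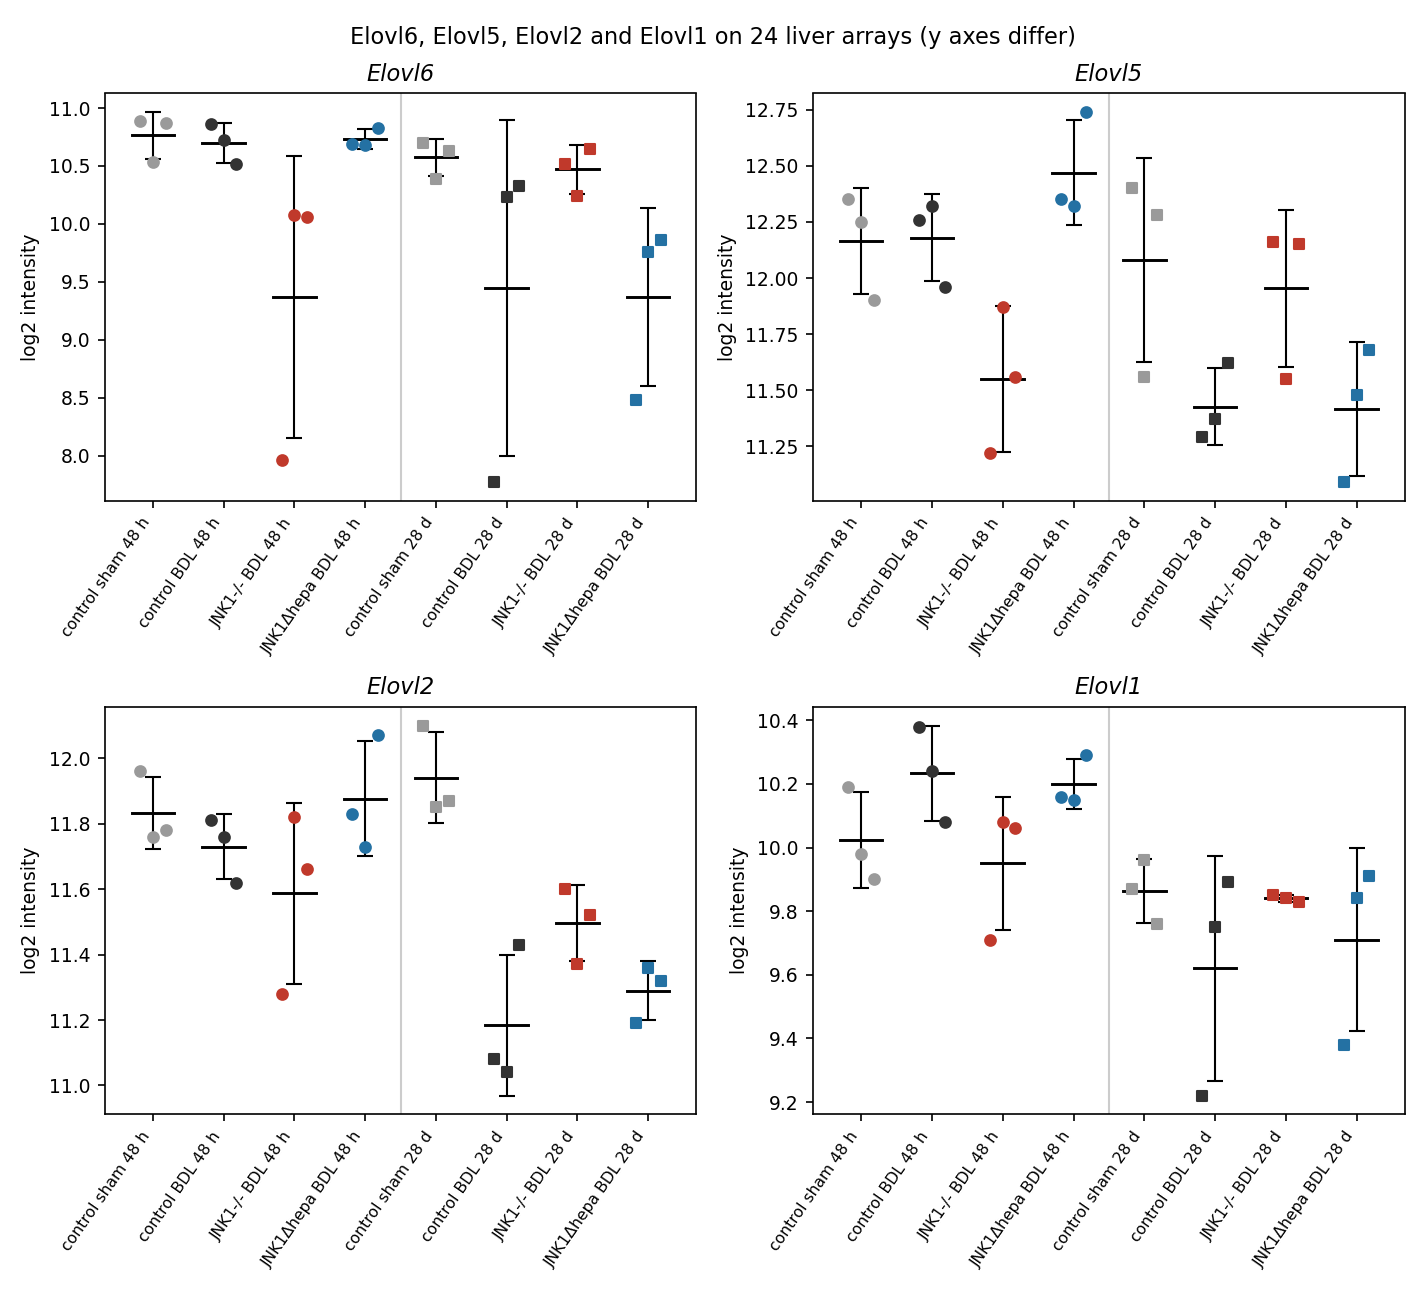
Log2 intensity of Elovl1, Elovl2, Elovl5 and Elovl6 on each of 24 arrays by group; points are arrays, bars are group means and whiskers 1 SD (n = 3). The Elovl6 panel shows 3 arrays apart from their groups, at 7.77, 7.96 and 8.48, and the Elovl5 panel shows JNK1-/- arrays low at 48 h and JNK1Δhepa arrays low at 28 d.

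The comparisons among ligated mutant livers are not the ligated against sham contrast named in picking the family. Earlier results of these data were known by then, so these comparisons are not independent of the choice. They were tested with limma over all symbols, with Benjamini-Hochberg adjustment and a threshold of 0.05 on the adjusted p. From 48 h to 28 d of ligation in JNK1Δhepa livers, 4 of 6 elongases fell, against 18.0% of symbols changed and 8.67% lower over all genes. Elovl3 fell by 2.75 (SE 0.66; limma adjusted p = 0.00672), Elovl5 fell by 1.05 (SE 0.23; adjusted p = 0.00318), Elovl2 fell by 0.59 (SE 0.13; adjusted p = 0.00471) and Elovl1 fell by 0.48 (SE 0.15; adjusted p = 0.0347), each with all 3 later arrays below all 3 earlier ones, as for 19.3% of symbols. Elovl6 differed by -1.37 (SE 0.55; adjusted p = 0.0917) with ranges apart, and Elovl7 by 0.65 (adjusted p = 0.331). Without JNK1Δhepa replicate 1 at 28 d, the array with Mapk8 at the control level, Elovl1 differed by -0.32 (adjusted p = 0.219) and 3 members fell; Elovl1 was also lost without any single array of the 48 h group. Elovl3 fell by 1.56 without the 48 h replicate 3 that read 10.64. Of 5 endothelial markers 2 also fell, with a list median of -0.67, and their part was not tested. In ligated controls, described without a test, the same 4 members and Elovl6 also had lower means at 28 d than at 48 h. The differences there were -4.54 for Elovl3, -1.26 for Elovl6, -0.76 for Elovl5, -0.61 for Elovl1 and -0.55 for Elovl2. The Elovl6 mean at 28 d includes replicate 1 at 7.77, against 10.23 and 10.33 in the others. Elovl7 differed by 0.20 in these controls, with ranges that overlapped.

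In JNK1-/- livers 0 of 6 elongases passed the test between 48 h and 28 d, where 2.84% of symbols did, and 2 had an unadjusted limma p under 0.05, as did 16.9% of symbols. Elovl3 differed by -1.59 (adjusted p = 0.22), Elovl7 by 1.10 (adjusted p = 0.166), Elovl6 by 1.10 (adjusted p = 0.314) and Elovl5 by 0.40 (adjusted p = 0.383). Ranges were apart for Elovl3, Elovl6 and Elovl7, and for 21.6% of symbols. Without JNK1-/- replicate 1 at 48 h the Elovl6 difference was 0.40 and that of Elovl7 0.31.

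The difference between these 2 time courses was tested directly, a comparison added after the values were seen. The change of Elovl5 from 48 h to 28 d was 1.45 higher in JNK1-/- than in JNK1Δhepa livers (SE 0.32; limma adjusted p = 0.0258), where 2.43% of symbols passed. The difference kept its size, 1.29 to 1.66, when each of the 12 arrays was left out in turn, but missed the threshold without any 1 of 5 arrays: JNK1-/- replicate 1 at 48 h (1.29; adjusted p = 0.0588), JNK1-/- replicate 1 at 28 d (1.35; adjusted p = 0.055) or replicate 3 (1.35; adjusted p = 0.0814), JNK1Δhepa replicate 3 at 48 h (1.32; adjusted p = 0.0694) and JNK1Δhepa replicate 1 at 28 d (1.29; adjusted p = 0.0903). Elovl6 had a difference of 2.47 (SE 0.77; adjusted p = 0.0824). For Elovl3 it was 1.16, for Elovl2 0.50, for Elovl7 0.46 and for Elovl1 0.38, with adjusted p of 0.144 to 0.708. Without single arrays the sign turned for Elovl3 (-0.03 without JNK1Δhepa replicate 3 at 48 h) and for Elovl7 (-0.33 without JNK1-/- replicate 1 at 48 h).

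At 48 h Elovl5 was lower in JNK1-/- than in JNK1Δhepa livers by a log2 difference of -0.92 (SE 0.23; limma adjusted p = 0.0338), 1 of 6 members against 2.44% of symbols changed and 1.24% lower. The ranges of Elovl1, Elovl5 and Elovl6 did not overlap, with all JNK1-/- arrays the lower, as for 10.1% of symbols. Elovl6 differed by -1.37 (adjusted p = 0.215), or -0.66 without JNK1-/- replicate 1, Elovl7 by -0.96 (adjusted p = 0.258), or -0.17, and Elovl3 by -1.10 (adjusted p = 0.46), or 0.10 without JNK1Δhepa replicate 3. The Elovl5 call was lost without JNK1-/- replicate 1 (-0.75; adjusted p = 0.147), without replicate 3 and without any of the JNK1Δhepa arrays, and stood without JNK1-/- replicate 2 (-1.08; adjusted p = 0.0333). Neutrophil list means were 6.58 to 7.57 in JNK1-/- and 5.39 to 5.91 in JNK1Δhepa livers, and their part was not tested.

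At 28 d the mutants did not differ in any elongase by this test (0 of 6; 0.962% of symbols passed). Elovl5 had an unadjusted limma p under 0.05, as did 17.1% of symbols. Elovl6 was 1.11 higher (adjusted p = 0.308) and Elovl5 0.54 higher (adjusted p = 0.225) in JNK1-/- livers, and for Elovl3 the difference was 0.07. Without JNK1Δhepa replicate 1 the difference of Elovl6 was 0.66 (adjusted p = 0.75) and that of Elovl5 0.37 (adjusted p = 0.642). Elovl6 and Elovl2 had ranges apart, both higher in JNK1-/- livers, where 26.4% of symbols had ranges apart in either direction.

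**Figure D3:**
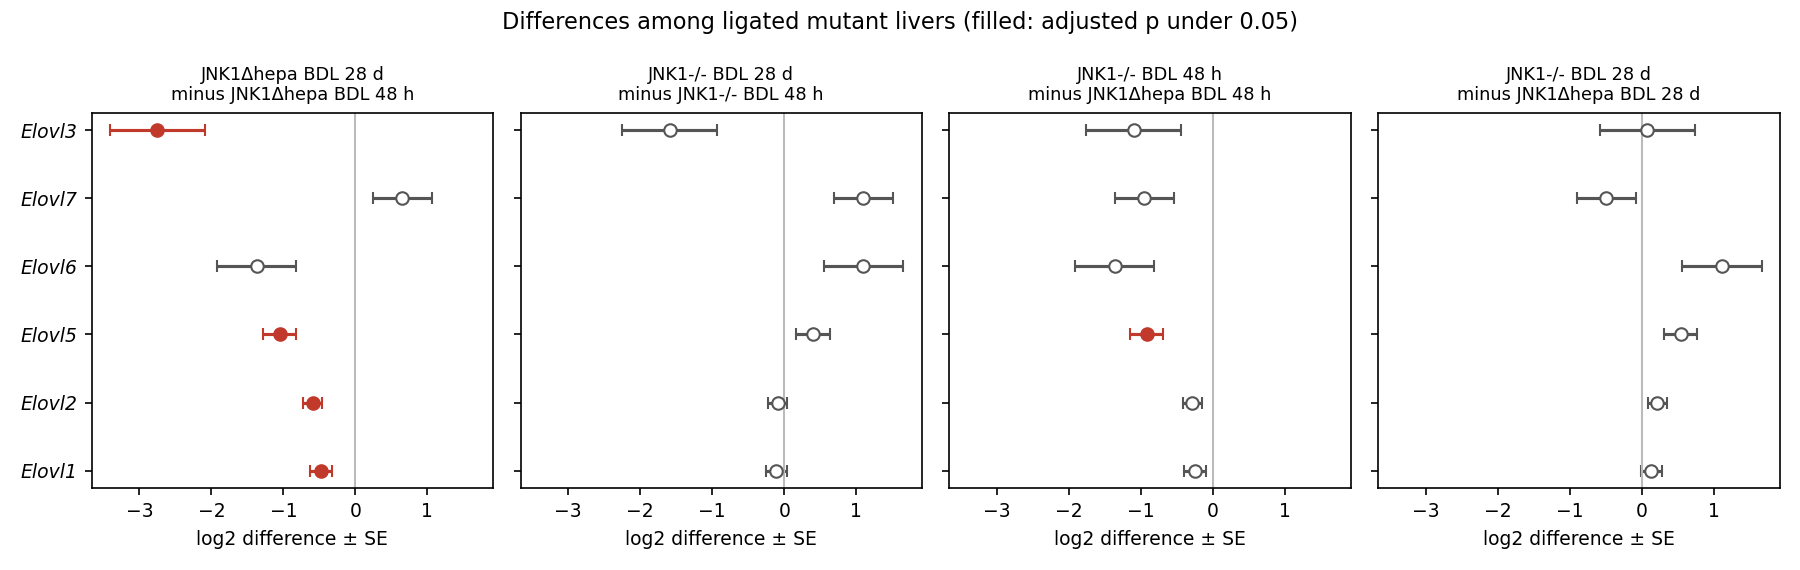
Log2 difference with its SE for the 6 elongases in 4 comparisons among ligated mutant livers (3 arrays a group); filled points passed an adjusted p of 0.05 in limma. In JNK1Δhepa livers 4 members lie below 0 and pass, and at 48 h Elovl5 alone passes between the mutants.

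Against ligated controls, which share arrays with the contrast the family was picked on, 0 of 6 members passed limma's test in any of 4 comparisons. In JNK1-/- livers at 48 h (2.30% of symbols), 4 members had an unadjusted p under 0.05 (15.4% of symbols) and ranges wholly below controls (10.6%): Elovl3 (-2.27; adjusted p = 0.077), Elovl7 (-1.39; adjusted p = 0.0873), Elovl6 (-1.33; adjusted p = 0.233) and Elovl5 (-0.63; adjusted p = 0.162). Without JNK1-/- replicate 1 the difference of Elovl6 was -0.63 (adjusted p = 0.691) and that of Elovl5 -0.47 (adjusted p = 0.443). The Elovl7 value rested on the same array: it was -0.60 (adjusted p = 0.276) without it, and passed without replicate 2 (-1.83; adjusted p = 0.0336) or replicate 3 (-1.75; adjusted p = 0.0446). At 28 d (0.627% of symbols), 2 had an unadjusted p under 0.05 (12.4% of symbols), Elovl5 (0.53) and Elovl2 (0.31). Elovl6 differed by 1.03 (adjusted p = 0.465), or 0.19 (adjusted p = 0.929) without control BDL replicate 1. In JNK1Δhepa livers no member had an unadjusted p under 0.05 at 48 h, where 0% of symbols passed and 3.23% had such a p, or at 28 d, where 0.228% passed and 14.9% had one. At 28 d Elovl6 differed by -0.08 in these livers, or 0.37 without JNK1Δhepa replicate 1. Elovl3 in JNK1Δhepa at 48 h differed by -1.18 (adjusted p = 1), or -2.37 (adjusted p = 0.236) without replicate 3. Between the 2 sham groups (0.133% of symbols), 0 members passed and 0 had an unadjusted p under 0.05 (7.58% of symbols), with differences of -0.29 to 0.10; Elovl3 alone had ranges apart, lower at 28 d, as 18% of symbols had in either direction.

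Partner enzymes complete the elongation round. Of 7 partners, 0 passed at 48 h after ligation in controls, where 9.43% of all symbols did. At an unadjusted limma p under 0.05 there was 1, and the share of all symbols at that level was not counted. By 28 d 1 fell and 1 rose, where 23.2% of all symbols passed. At 28 d, Hsd17b12, the first reductase of the round, fell by 1.04 (SE 0.21; adjusted p = 0.000962), from 10.11, 9.88 and 10.20 in shams to 8.49, 9.20 and 9.37. Hacd4, one of the dehydratases, rose by 1.03 (SE 0.26; adjusted p = 0.00749), from 4.77, 5.45 and 5.07 to 5.84, 5.83 and 6.72. The list median was -0.11, beside -0.028 over all symbols. From 48 h to 28 d in JNK1Δhepa livers Hsd17b12 fell by 0.91 (SE 0.21; adjusted p = 0.00456) and Hacd1 fell by 0.46 (SE 0.12; adjusted p = 0.0107; not passed without JNK1Δhepa replicate 1 at 28 d, at -0.34), with a list median of -0.15 beside 0.011. Over all symbols 18.0% passed in that JNK1Δhepa comparison and 8.67% were lower. Hacd2, Hacd3, the last reductase Tecr and its relative Tecrl passed in none of 11 comparisons.

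Desaturases, which add double bonds to the chains that elongases lengthen, changed gene by gene. Of 8, 2 rose at 48 h in ligated controls, Scd2 by 1.77 and Fads3 by 1.04, and none passed with the sham arrays of the other time. At 28 d Scd2 rose by 1.92, Fads3 rose by 1.26 and Fads1, which acts between Elovl5 and Elovl2, fell by 0.53 (adjusted p = 0.0208), or differed by -0.33 (adjusted p = 0.131) without replicate 1. List medians were 0.08 and -0.01, and 9.43% and 23.2% of all symbols passed at 48 h and 28 d. In JNK1Δhepa livers Fads1 fell by 0.67 and Fads2 fell by 1.13 from 48 h to 28 d, and neither passed without replicate 1 at 28 d. Over all symbols 18.0% passed in these livers over the same time and 8.67% were lower. Scd1, the main liver desaturase of stearate, rose by 1.41 (adjusted p = 0.0234) in JNK1-/- livers over the same time, from 10.48, 12.11 and 12.64 to 13.19, 13.15 and 13.13, and by 0.78 (adjusted p = 0.0198) without the array at 10.48; it passed in 9 of 14 settings. Fads3 rose by 1.07 there (adjusted p = 0.0337; 0.93 and adjusted p = 0.089 without that array). At 48 h Scd1 was lower in JNK1-/- than in JNK1Δhepa livers (-1.38; adjusted p = 0.0291) and than in controls (-1.35; adjusted p = 0.0316), and these were -0.74 (adjusted p = 0.0431) and -0.72 (adjusted p = 0.052) without the array at 10.48. They passed in 9 and 8 of 14 settings. Over all symbols 2.84% passed in JNK1-/- livers over time. At 48 h 2.44% passed between the mutants and 2.30% in JNK1-/- livers against controls.

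Genes around malonyl-CoA and palmitate supply were followed next. The list also holds genes of malonyl-CoA breakdown and of mitochondria, so not all of it feeds the elongases. Of 10, 0 passed in ligated controls at 48 h (2 with an unadjusted limma p under 0.05) and 3 fell at 28 d: Acacb, an acetyl-CoA carboxylase (-2.20), the malic enzyme Me1 (-1.57) and Thrsp (-1.76; adjusted p = 0.0419; -1.05 and adjusted p = 0.222 without replicate 1). Over all symbols 9.43% passed in these controls at 48 h, and at 28 d 23.2% passed and 11.5% were lower. The share of all symbols at an unadjusted limma p under 0.05 was not counted. In JNK1Δhepa livers 4 fell from 48 h to 28 d, where 18.0% of symbols passed and 8.67% were lower. Among the 4 were Acacb (-3.03), Acly, which makes cytosolic acetyl-CoA (-1.52), and Me1 (-1.03), and 2 fell without replicate 1 at 28 d. In JNK1-/- livers 2 rose (2.84% of symbols passed), Thrsp by 2.49 and Acaca, the other carboxylase, by 1.19. Without replicate 1 at 48 h Thrsp differed by 1.86 (limma adjusted p = 0.104). At 48 h Acacb (-2.12), Thrsp (-2.48) and Me1 (-1.08) were lower in JNK1-/- than in JNK1Δhepa livers, as were 1.24% of all symbols. Acacb alone was lower without JNK1-/- replicate 1. Srebf1, the regulator of lipogenic genes, read 7.86, 8.08 and 8.04 in JNK1-/- livers at 48 h and 9.96, 9.94 and 9.26 at 28 d, a rise of 1.72 (adjusted p = 0.000486) that was 1.66 without replicate 1. Ligated JNK1Δhepa livers read 8.88 to 9.32 at 48 h.

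Some genes of ceramide synthesis and of peroxisomal chain shortening passed the test after ligation in controls. Of 12 ceramide synthesis genes 4 rose at 48 h and 4 at 28 d, with medians of 0.16 and 0.29, where 9.43% and 23.2% of all symbols passed with medians of -0.029 and -0.028. The share at 28 d is near that of all symbols. Sptlc2, a subunit of the enzyme that starts sphingolipid synthesis, rose by 1.23 (adjusted p = 0.00181) at 48 h, and Cers6, a ceramide synthase, rose by 0.96 (adjusted p = 0.0033). In JNK1Δhepa livers both fell between 48 h and 28 d, by -0.75 and -0.92. Cers2, another ceramide synthase, differed by -0.01 to 0.10 in ligated controls at 48 h and passed in 0 of 15 settings. At 28 d Cers2 differed by -0.24 to -0.08 and passed in 2 of 15. Of 10 genes of peroxisomal chain shortening, 4 fell and 1 rose at 48 h, and 6 fell and 1 rose at 28 d, with medians of -0.31 and -0.58 against the same shares and medians of all symbols. The transporter Abcd3 fell by 0.81 at 48 h and fell by 1.03 at 28 d, and its relative Abcd2, the member that rose at both times, by a log2 difference of 1.51 and 1.37; with the sham arrays of the other time it did not pass at 48 h.

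Of 18 lipid transcription regulators 2 rose and 4 fell at 48 h, and 3 rose and 4 fell at 28 d in ligated controls, where 9.43% and 23.2% of all symbols passed. Mlxipl, the carbohydrate-responsive regulator of lipogenic genes, fell by 0.92 at 48 h and fell by 1.35 at 28 d; Ppara, the regulator of fatty acid oxidation, fell by 1.14 and fell by 0.75; Pparg rose by 0.96 and 1.10, or differed by 0.22 (adjusted p = 0.322) and 1.83 with the sham arrays of the other time. In growth hormone signalling, which sets the sex bias of liver genes, the receptor Ghr fell by 0.56 at 48 h and fell by 1.30 at 28 d. Of the 9 genes of that list 5 fell and 1 rose at 28 d, where 11.5% of all symbols fell. Cish rose by 2.87 at 48 h, and differed by 2.97 between the sham groups, higher at 28 d. With the sham arrays of the other time, 1 regulator rose and 3 fell at 48 h, and 3 rose and 6 fell at 28 d.

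The 3 arrays lowest in Elovl6 were replicate 1 of JNK1-/- at 48 h, of ligated controls at 28 d and of JNK1Δhepa at 28 d. Most genes of the malonyl-CoA and palmitate list were also lowest of their group there. This held for 10 of 10 in the first, 8 of 10 in the second and 7 of 10 in the third. Over all symbols 43.0%, 36.5% and 32.8% were lowest on replicate 1 of these groups. Acly read 8.55 against 9.93 and 10.07 in the first group, 8.64 against 10.11 and 10.20 in the second and 8.87 against 9.62 and 9.82 in the third. Of 8 desaturases, 4, 7 and 7 were lowest of their group on these arrays, the 4 near the share of all symbols. On the JNK1-/- array at 48 h Scd2 was highest of its group, at 9.12 against 7.61 and 8.06. Fads6 (8.56 against 7.93 and 8.35) and the dim Scd4 (3.23 against 3.12 and 3.15) were also highest there, and Scd3 lay in the middle.

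**Figure D4:**
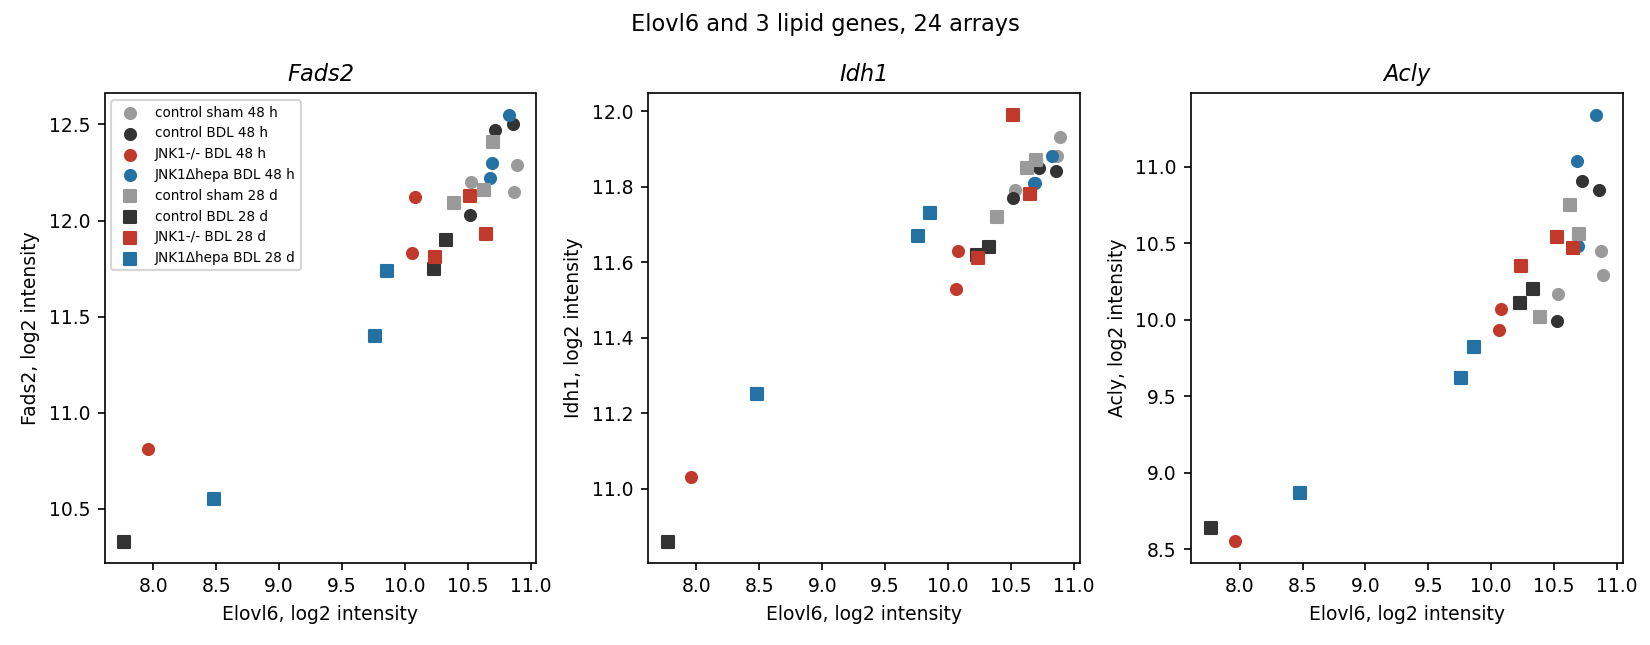
Log2 intensity of Fads2, Idh1 and Acly against Elovl6, 1 point per array (24 arrays), coloured by genotype and surgery, circles for 48 h and squares for 28 d. The 3 arrays with Elovl6 below 9 are also the 3 lowest for each of the other genes.

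Likeness to a member was measured as Pearson's r over the 24 arrays, as a description without a test, since arrays of a group share treatment. Elovl6 was most like Idh1, which makes cytosolic NADPH (0.961), Fads2 (0.957) and the sterol enzyme Sc5d (0.955); over the 21 arrays without the 3 lowest these were 0.767, 0.847 and 0.866. Elovl5 was most like Acss2, an acetyl-CoA synthetase (0.895), Fads1 (0.884) and H2-Q10 (0.876), and Elovl2 most like its partner Hsd17b12 (0.917), Tmem147 (0.917) and Ccnf (0.906). Elovl1 was most like Lsr (0.928), Ifih1 (0.904) and Copz1 (0.896). Among the elongases, group means of Elovl5 and Elovl6 had r = 0.95 over 8 groups, and deviations from group means 0.53 over 24 arrays.

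Elovl3 was most like Sult2a8 (0.973), the steroid enzyme Hsd3b5 (0.971), the transporter Slco1a1 (0.956), Scp2 (0.953) and Ugt3a1 (0.948), and these were 0.867 to 0.936 over the 18 ligated arrays. Hsd3b5 shared the split of the JNK1Δhepa arrays at 48 h, with 4.16, 4.57 and 8.63, where Elovl3 read 6.87, 7.26 and 10.64. Genes known to be higher in male than female liver were listed without Elovl3, and 11 of 18 fell at 48 h and 17 at 28 d in ligated controls, with medians of -0.89 and -2.65 beside -0.029 and -0.028 over all symbols. The count at 48 h was 6 without control BDL replicate 2 and 7 without sham replicate 1. Over all symbols 3.83% fell at 48 h and 11.5% at 28 d. Mup21, a major urinary protein, fell by 5.38 and Slco1a1 fell by 6.54 at 28 d, and Cyp7b1 fell by 2.86 at 48 h. The list was drawn up with results of these data known and is not independent of them.

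Elovl7 was most like Myo1c (0.974), Nid1 (0.973), Ccdc120 (0.970), Myl12a (0.966) and Rras (0.958). Over the 18 ligated arrays alone these were 0.768 to 0.884. Myo1c, a membrane myosin, read 7.73 to 7.95 in shams and 8.53 to 9.09 on ligated arrays other than JNK1-/- replicate 1 at 48 h, which read 8.03 where Elovl7 read 4.37. Elovl3 and Elovl7 had r = -0.81 over all 24 arrays and -0.22 over the 18 ligated ones, so the opposition lay between sham and ligated livers.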

How the data were processed

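The deposited table holds log2 intensities of 35556 probe sets on 24 arrays, normalized by the authors with RMA, per the submitters' processing notes (version not stated). Per the labels' protocols, 100 ng of liver RNA was converted with a whole-transcript kit. Of the probe sets 21218 carried 1 gene symbol, 1881 several and 12457 none; the brightest per symbol gave 18820 symbols. A linear model with 8 group means was fitted to all 24 arrays with limma 3.58.1 in R 4.3.3 (16 residual degrees of freedom, moderated), with Benjamini-Hochberg adjustment over all symbols; the median SE of a difference was 0.129, and 3 arrays a group limit the precision. The model was tested on simulated data with noise drawn independently for each gene and array, so genes that shift together on 1 array were not modelled. For JNK1Δhepa livers over time it recovered 47.8% of changes of 0.5, 83.6% of 1 and 95.5% of 2. Of the symbols called there, 5.03% were false. Arrays of replicates differed (highest correlation of any pair 0.9969).

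The members, lists and markers were chosen with earlier results of these data known. Named are all members and all elongation partners, up to 3 genes per direction, list and comparison with the smallest adjusted p, the 5 symbols most like Elovl3 and Elovl7 and the 3 most like each other member (predicted genes left out), and Mapk8. Alternatives were quantile normalization, centring on the median, the mean of probe sets, a filter on dim symbols (below the 25 percentile), array weights, fits to the 2 groups compared, the replicate number as a block, sham arrays of the other time and leaving out each array. Same-numbered arrays were counted as deviating together where the correlations of their deviations passed a set cut for every replicate number. This held in 1 of 11 comparisons, JNK1Δhepa against control BDL at 28 d (0.50, 0.24 and 0.16). JNK1-/- against control BDL at 28 d came near it (0.18, 0.08 and 0.50). The labels do not say what the numbers mean.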

Additional observations from a re-analysis of the deposited data

Results flagged for a closer look

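The change of Elovl5 from 48 h to 28 d of ligation differed between the mutants: it was 1.45 higher in JNK1-/- than in JNK1Δhepa livers (SE 0.32; limma adjusted p = 0.0258, 3 arrays a group). In JNK1-/- livers Elovl5 differed by 0.40 over this time and in JNK1Δhepa livers by -1.05. In ligated controls, where it was not tested, it differed by -0.76. The test was added after the values were seen, and 457 symbols passed it in all. With array weights the difference was 1.05 (limma adjusted p = 0.0227), the smallest of 17 settings. The call was lost in 5 of the 17, with adjusted p up to 0.0903.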

How the results depend on the processing

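The 60 tests of members were each run under 13 or 17 other settings, which gave 804 values. Of these, 748 kept direction and side of the threshold, 17 lost the call, 8 gained one and 31 changed sign. The sign changes lay in 15 results, and 0 of the 31 values passed the test. With array weights they were Elovl2 in JNK1-/- against controls at 48 h (0), Elovl3 between the mutants at 28 d (-0.17), Elovl5 in JNK1Δhepa against controls at 28 d (0.11; 0.03 with arrays centred) and Elovl7 in the difference of the time courses (-0.10); with quantile normalization, Elovl7 between shams (0.01). The others came when single arrays were left out. Those values ran, between the mutants, for Elovl1 at 28 d from -0.04 to 0.23 and for Elovl3 at 28 d from -0.24 to 0.35 and at 48 h from -1.79 to 0.10. In JNK1Δhepa against controls at 28 d they ran from -0.11 to 0.26 for Elovl1, -0.14 to 0.16 for Elovl5, -0.91 to 0.37 for Elovl6 and -0.25 to 0.36 for Elovl7, and at 48 h from -0.11 to 0.04 for Elovl1 and -0.05 to 0.12 for Elovl6. For Elovl2 they were -0.24 to 0.03 in JNK1-/- over time and -0.27 to 0.01 against controls at 48 h. The difference of the time courses ran from -0.03 to 1.86 for Elovl3 and -0.33 to 0.89 for Elovl7, and that of the shams from -0.25 to 0.17 for Elovl5 and -0.14 to 0.13 for Elovl7. The number of members passed in JNK1Δhepa livers over time was 3 to 5 of 6 over the settings. Between the mutants at 48 h it was 0 with the 2 groups alone, 0 with the replicate block, where Elovl5 had adjusted p = 0.126, and 0 to 1 when arrays were left out in turn. It was 1 with array weights for JNK1-/- over time (Elovl3 -1.84; adjusted p = 0.0423) and for JNK1-/- against controls at 48 h (Elovl3 -1.82; adjusted p = 0.0467), the latter 0 to 1 when arrays were left out. In JNK1Δhepa livers over time Elovl6 passed with array weights, with the 2 groups alone and with the replicate block (-1.37; adjusted p = 0.0112), and Elovl3 missed the threshold with the 2 groups alone (adjusted p = 0.0597). In the 1 comparison where same-numbered arrays deviated together, JNK1Δhepa against controls at 28 d, 0 members passed with or without the block.

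Counts of list genes without single arrays, or with the sham arrays of the other time, were added after seeing the data. Counts of symbols passed moved widely: 534 (4 to 2554) in JNK1-/- and 3382 (1919 to 5218) in JNK1Δhepa livers over time, 460 (66 to 1746) and 181 (34 to 1047) between the mutants at 48 h and 28 d, 433 (17 to 1891) and 118 (1 to 413) for JNK1-/- and 0 (0 to 3) and 43 (0 to 2357) for JNK1Δhepa against controls, 25 (4 to 131) between shams and 457 (70 to 1693) for the difference of the time courses. The lowest counts of the 5 comparisons with JNK1-/- livers came with the replicate block. Causes were not tested. With 3 arrays a group, 1 array decides many of these calls.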
